A study of Homo sapiens with 4 samples.

Results

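The claudins, connexins, cadherins and desmosomal genes were taken as 1 set, together with the adaptor proteins that anchor them inside the cell. Members were all gene symbols of the deposited RNA-seq transcripts that start with *CLDN*, *GJA*, *GJB*, *GJC*, *CDH*, *DSC*, *DSG*, *TJP*, *CTNNA*, *CTNND* or *PKP* followed by a digit, plus *DSP*, *JUP* and *OCLN*. They were matched by name and not by any measured value, but the set was chosen with earlier results of these data known. This gave 86 of 23287 gene symbols, with 178 of 41138 transcripts.

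T47D is an established human breast cancer cell line of luminal epithelial type that expresses the progesterone receptor (PR), and it was studied at passages 5-8 in medium with charcoal-stripped serum, which lowers the steroids that serum carries. By the methods of the study, cells for ChIP were kept in that medium for longer before harvest than cells for RNA. One RNA-seq library came from cells treated for 3 h with 10 nM R5020, a synthetic progestin, and 1 from cells treated with the vehicle, ethanol (EtOH). One ChIP-seq library was made with an antibody against PR after 1 h of 10 nM R5020, and an input DNA library served the authors as its control and was not analysed here. With 1 library per condition of 1 cell line, none of the differences given here has a replicate check, no p-value is given, and each difference compares these libraries.

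Epithelial cells are joined to their neighbours by several kinds of junction. Claudins and occludin form the tight junction, which seals the space between cells, and the TJP scaffold proteins tie it to actin. Classical cadherins bind cell to cell in the adherens junction and reach actin through catenins. Desmosomal cadherins (desmogleins and desmocollins) reach the keratin filaments through plaque proteins (desmoplakin, plakoglobin and plakophilins). Connexins form the channels of the gap junction, through which small molecules pass between cells. In the breast, these junctions hold the luminal epithelium together and separate milk from tissue fluid.

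Levels are FPKM, a fragment count corrected for transcript length and sequencing depth, summed over the transcripts of a gene. Because of the length correction, levels of different genes may be compared. Change is log2((FPKM in R5020 + 1)/(FPKM in EtOH + 1)). A gene was retained when its FPKM was at least 1 in at least 1 condition, and it was called higher or lower when the change passed 1.5-fold. Read equivalents were derived from the deposited coverage, the length of each transcript and reads of 50 nt. They summed to 35151493 in EtOH and 36203604 in R5020, and they are given for several members at a low level. By the methods of the study, the EtOH library had more uniquely mapped read pairs than the R5020 library. The order of the derived totals is thus opposite, and the reason was not tested. The deposited intervals were not used as errors, since 7 of 31 FPKM values above 1 of retained members in EtOH (22.6%) and 9 of 35 in R5020 (25.7%) lay outside their own interval.

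Markers of luminal epithelium with an estimate in both libraries were expressed in both, at unlike levels. *KRT19*, a luminal keratin, was at 608 FPKM in EtOH and 477 in R5020, and *EPCAM*, an epithelial adhesion molecule, at 62.2 and 55.6. *KRT8* and *KRT18* were at 285 and 174 in R5020, whereas their estimates failed in EtOH. *GATA3*, a luminal factor gene, was at 253 FPKM in EtOH and 126 in R5020. The receptor genes *ESR1* and *PGR* were at 17.2 and 10.9 and at 23.7 and 15.3. *GATA3*, *ESR1* and *PGR* were thus lower in R5020 (changes of -0.998, -0.61 and -0.60). Basal, mesenchymal, endothelial and haematopoietic markers were low: *KRT5* and *KRT14* did not exceed 0.232, *VIM* was at 0.360 and 0.527, *TP63* at 0.143 and 0.121, *ACTA2* at 1.93 and 1.35, *FN1* at 4.16 and 3.99, *PECAM1* at 0.222 and 0.315, and *CDH5*, *CDH2*, *ZEB1* and *PTPRC* were between 0 and 0.0334.

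Of the 86 members, 25 were retained, 61 were below 1 FPKM in both libraries, and 22 of those 61 were listed at 0 in both. Among the retained members, 4 were higher in R5020 (16%), 3 were lower (12%) and 18 were within 1.5-fold. Over all 11010 retained genes, 7.65% were higher, 4.1% were lower and 11.7% moved in either direction, while 7 of 25 members (28%) did. The direction of the calls over all genes depended on the scaling. Without a pseudocount, 1124 genes were higher and 840 lower with FPKM. Coverage scaled to the library totals, also without a pseudocount, gave 944 and 1140. With FPKM and the pseudocount of 1, the counts were 842 and 451. The median change was 0.07 over the retained members and 0.01 over all retained genes. The 7 called members were 5 claudins (*CLDN1*, *CLDN3*, *CLDN4*, *CLDN8* and *CLDN12*) and 2 connexins (*GJB2* and *GJB6*). No retained cadherin, catenin, desmosomal gene or tight junction scaffold gene passed 1.5-fold.

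**Figure D1:**
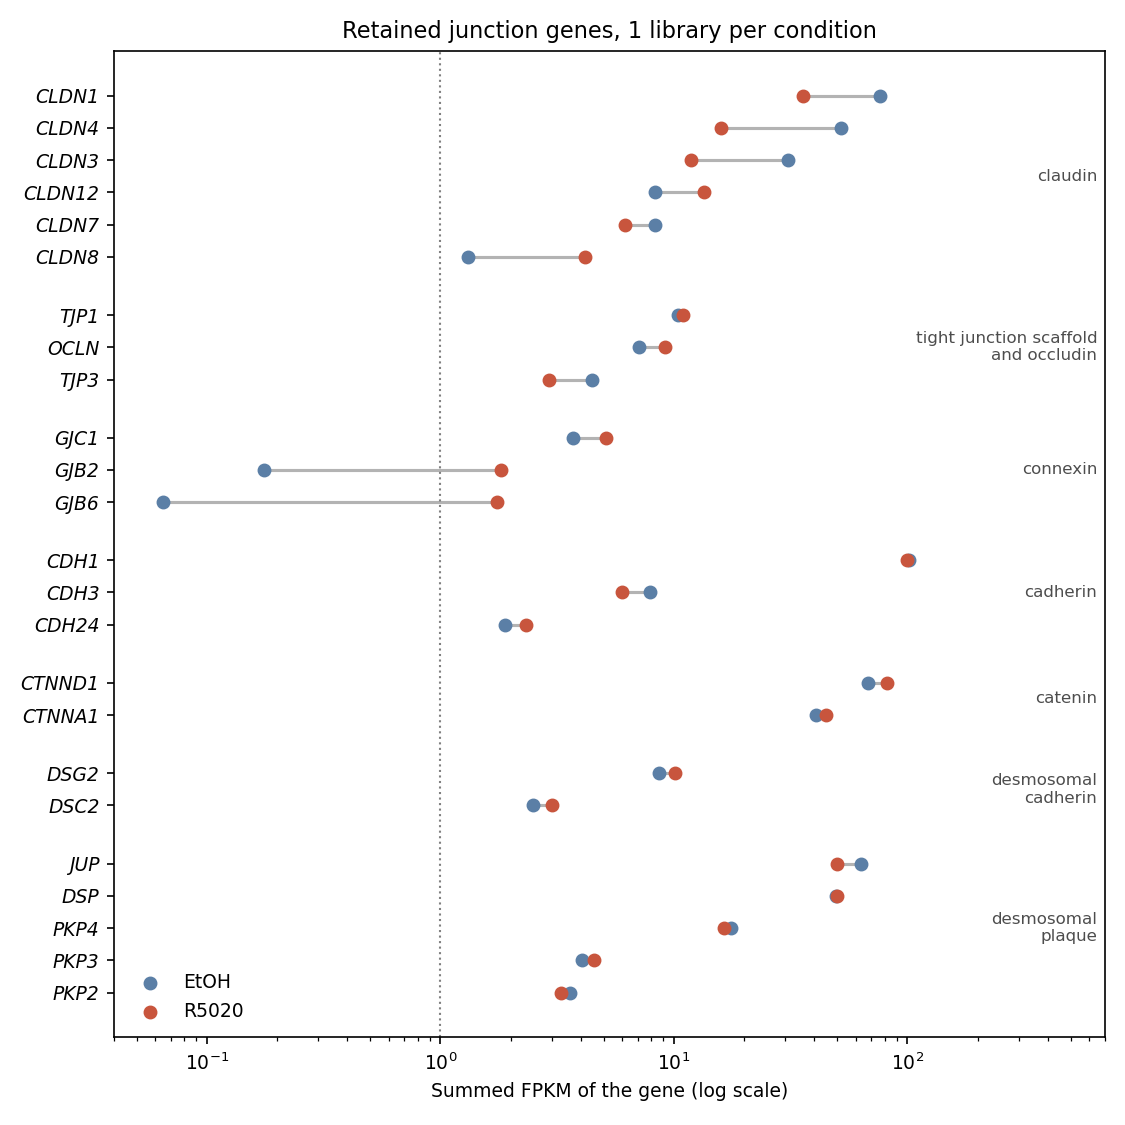
Summed FPKM (log axis) of 24 of the 25 retained members in the EtOH (blue) and R5020 (red) library, grouped by kind of junction protein and joined by a grey line, with 1 library per point. The dotted line marks 1 FPKM. *CLDN1*, *CLDN3* and *CLDN4* lie further left in R5020, *CLDN8*, *GJB2* and *GJB6* further right, and both points of *CDH1* and *DSP* nearly coincide.

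The most abundant members in EtOH were *CDH1* at 102 FPKM, *CLDN1* at 76.0, *CTNND1* at 67.8, *JUP* at 63.0 and *CLDN4* at 52.0. In R5020 the order was *CDH1* at 99.2, *CTNND1* at 81.8, *DSP* at 50.1, *JUP* at 49.9 and *CTNNA1* at 45.0, and *CLDN1* came next at 35.7. *DSP* and *JUP* lay within 1 FPKM of each other in R5020, and with 1 library their order is not fixed. Summed over all 86 members, FPKM was 587 in EtOH and 506 in R5020, a ratio of 0.862. In these bulk libraries, fewer cells expressing a gene and less RNA of it per cell cannot be told apart.

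The claudins, the membrane proteins that set how tight and how ion-selective the seal between cells is, held all the decreases past 1.5-fold in the set. Their summed FPKM over all 23 family members was 180 in EtOH and 90.8 in R5020, a ratio of 0.505. Of the 6 retained claudins, 3 were lower, 2 were higher and *CLDN7* was within 1.5-fold, with a median change of -0.72. The 3 lower ones were the 3 most abundant claudins in EtOH.

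*CLDN4*, a claudin of many simple epithelia, was at 52.0 FPKM in EtOH and 15.9 in R5020, or 3.28-fold lower without a pseudocount (change -1.65). Its rank among all gene symbols went from 409 to 1993, on 9044 and 2663 read equivalents. *CLDN3*, a close relative that like *CLDN4* binds the enterotoxin of *Clostridium perfringens*, was at 30.8 and 11.9 FPKM, or 2.59-fold lower (change -1.30). *CLDN1*, needed for the water barrier of the skin, was at 76.0 and 35.7 FPKM, or 2.13-fold lower (change -1.07). All 3 are single-transcript genes in the deposited annotation, so no split between isoforms enters their values. *CLDN3* and *CLDN4* lie 60.6 kb apart on chromosome 7, and *CLDN1* lies on chromosome 3.

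*CLDN8*, a claudin known from the kidney collecting duct, was at 1.31 FPKM in EtOH and 4.15 in R5020 (change 1.15), on 269 and 820 read equivalents. Without the pseudocount it was 3.16-fold higher, and its rank went from 10107 to 6494. *CLDN12*, a claudin linked to calcium uptake in the gut, was at 8.32 and 13.4 FPKM (change 0.63), or 1.61-fold higher. Its summed read equivalents were 2860 and 4424. Of its transcripts, NM_012129 was at 8.32 and 10.0 FPKM, a change of 0.24, and NM_001185073 was listed at 0 in EtOH and at 3.38 in R5020, where it made up 25.2% of the gene. Their lengths are nearly equal, 3617 and 3621 nt, so the sum hardly depends on how reads were split between them, and among the alternatives tried the 1.5-fold call is lost only where the most abundant transcript stands for the gene. *CLDN7*, a claudin of luminal breast epithelium, was at 8.31 and 6.17 FPKM (change -0.38). Its transcripts NM_001307 and NM_001185022 were at 4.56 and 3.75 FPKM in EtOH and at 2.64 and 3.53 in R5020.

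The makeup of the family therefore differed between the libraries. *CLDN1*, *CLDN3* and *CLDN4* together held 88.4% of all claudin FPKM in EtOH and 69.8% in R5020. *CLDN1* kept a like share, 42.3% and 39.3%, whereas *CLDN4* held 28.9% and 17.5%. *CLDN12* held 4.63% and 14.8%, and *CLDN8* 0.730% and 4.57%. The other 17 claudins were below 1 FPKM in both libraries, 6 of them at 0.

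**Figure D2:**
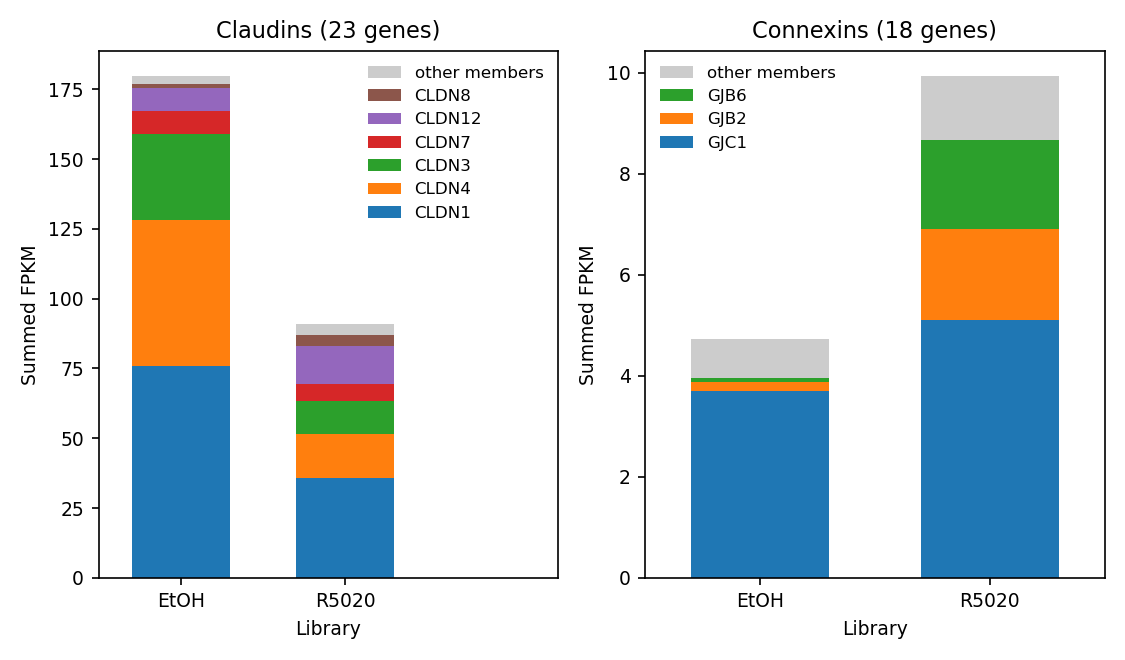
Summed FPKM of the claudins (left) and connexins (right) in the EtOH and R5020 library, 1 library per bar, with the retained members in colour and the rest of the family in grey. The claudin bar is lower in R5020 (90.8 against 180), and the connexin bar is higher (9.94 against 4.73), with *GJB2* and *GJB6* visible mainly in R5020.

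PR binding sites, the regions called by the authors from the ChIP-seq reads, were tied to a member when an edge lay inside or within 50 kb of the extent of its transcripts. Each site carries a deposited score, 10 times the negative log10 of the p-value from MACS, and the 11181 sites had a median score of 74.5 and a range of 50 to 1965. Among the called members, *CLDN1*, *CLDN3*, *CLDN4* and *CLDN8* had such sites, 11 in all, with a median score of 65.2. *CLDN4* had 5, all downstream of the gene. The strongest, at a score of 134.92 and rank 623 of all sites, began 122 bases past its 3' end. The others, with scores of 60.37, 79.8, 69.68 and 56.97, lay between 5796 and 28374 bases past it, nearer to the start of *METTL27* or *TMEM270*.

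*CLDN3* had 4 sites, 1 over the gene and 3 past its 3' end by 135 to 6587 bases. The one over the gene covered 846 bases with a score of 90.02, and its midpoint lay 903 bases from the start site. *CLDN8* had 1 site, which lay over its start with the midpoint 81 bases downstream and a score of 79.67. *CLDN1* had 1 site 4067 bases upstream with a score of 56.97. In GENCODE that site lay within an intron of *CLDN16*, another claudin gene, which was at 0.294 and 0.366 FPKM. The deposited extent of *CLDN16* does not reach it, and the site nearest to that extent was 61.0 kb away. *CLDN12* had none, and the nearest was 847 kb away.

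PR binds as a dimer to inverted repeats of AGAACA, so 3 patterns were searched on both strands, namely GNACANNNTGTNC for the full element, ACANNNTGT for its inner letters and AGAACA for a single arm. Every match of the first contains the second, and a match of the third can overlap either. In the 300 bases around the midpoint, the full element was in 1.89% of the 11178 sites with sequence and in 0.438% of windows 5 kb away, the inner letters in 8.19% and 7.11%, and the single arm in 17.7% and 18.9%. None of the 40 sites near retained members held the full element. One held the inner letters (2.5%) and 4 the single arm (10%), and among the 11 sites near called members 1 held a single arm.

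The strongest sites of *CLDN3* and *CLDN1* are shown to let the sequence under the signal be read, on the plus strand of GRCh37, the assembly of hg19. Untranslated sequence was left out, so that of *CLDN3* is a stretch of its coding exon. No capitals appear, since neither stretch held a searched pattern, which says only that these letters are not in them.
CLDN3 site chr7:73183770-73184069: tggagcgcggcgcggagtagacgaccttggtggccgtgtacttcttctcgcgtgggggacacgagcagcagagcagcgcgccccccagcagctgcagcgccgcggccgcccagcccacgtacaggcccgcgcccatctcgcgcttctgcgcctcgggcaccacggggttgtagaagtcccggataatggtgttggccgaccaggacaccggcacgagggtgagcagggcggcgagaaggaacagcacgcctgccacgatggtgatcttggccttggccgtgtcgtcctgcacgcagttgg
CLDN1 site chr3:190044351-190044650: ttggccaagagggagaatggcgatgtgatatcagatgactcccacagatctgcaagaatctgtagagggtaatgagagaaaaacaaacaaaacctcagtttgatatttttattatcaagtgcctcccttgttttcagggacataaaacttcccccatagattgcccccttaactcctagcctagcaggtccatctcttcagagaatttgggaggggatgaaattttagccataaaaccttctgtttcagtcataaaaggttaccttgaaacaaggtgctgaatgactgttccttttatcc

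**Figure D3:**
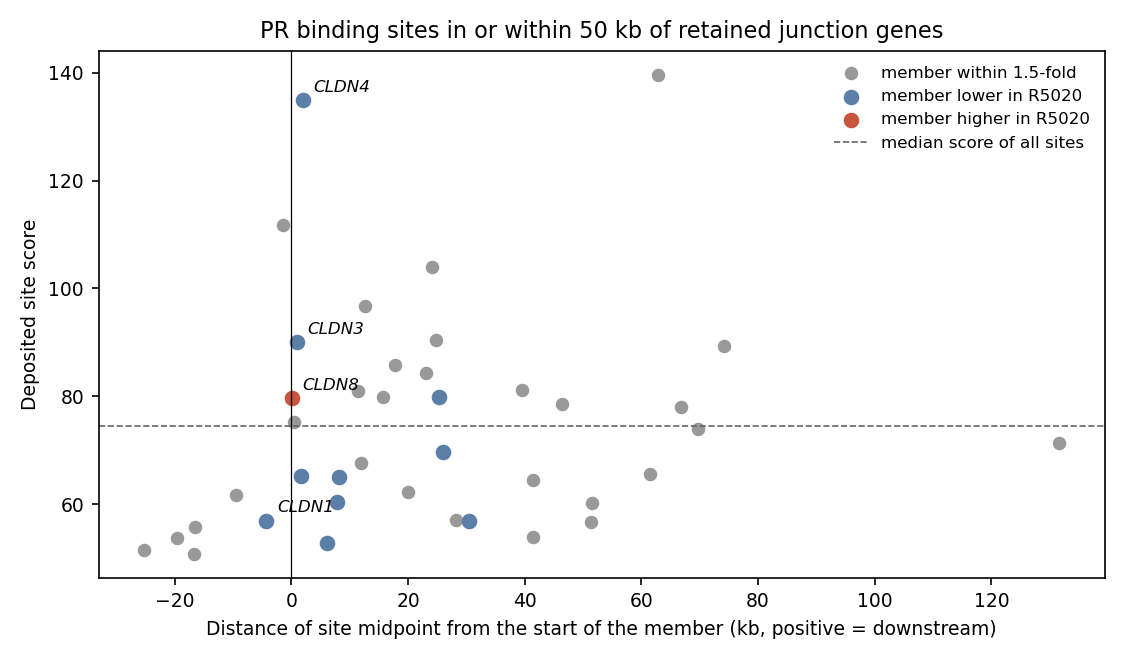
Deposited score of the 40 PR binding sites in or within 50 kb of retained members, against the distance in kb of the site midpoint from the start of the member (positive is downstream), 1 point per site. Blue points belong to members lower in R5020, the red point to *CLDN8*, and grey points to members within 1.5-fold. The *CLDN4* site at 134.92 is the highest of the called members, and the dashed line is the median of all sites, 74.5.

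Beneath the claudins, the scaffold of the tight junction and occludin stayed within 1.5-fold. *TJP1*, encoding a scaffold protein that binds claudin tails, was at 10.4 FPKM in EtOH and 10.97 in R5020 (change 0.07). *OCLN*, the membrane protein occludin, was at 7.10 and 9.20 FPKM (change 0.33). *TJP3*, another scaffold gene, was the nearest to the threshold of all uncalled members at 4.44 and 2.91 FPKM (change -0.48), and without a pseudocount its change was -0.61, past 1.5-fold. *TJP3* had 4 PR binding sites 1566 to 23882 bases past its 3' end, with a highest score of 103.93, and *TJP1* and *OCLN* had none within 50 kb.

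The connexins were few and low in these cells, and those that changed were higher. Of 18 members, 3 were retained, 5 were listed at 0 in both libraries, and the summed FPKM was 4.73 in EtOH and 9.94 in R5020, a ratio of 2.10. *GJB2*, the connexin most often mutated in inherited deafness and a gap junction protein of the mammary gland, was at 0.175 FPKM in EtOH and 1.82 in R5020 (change 1.26). Without a pseudocount this was 10.4-fold higher, on 37.4 and 393 read equivalents. *GJB6*, its partner in the inner ear, was at 0.0646 and 1.75 FPKM (change 1.37), or 27.1-fold higher. That ratio rests on 9.88 read equivalents in EtOH against 326 in R5020, so few reads stand behind its size. Neither gene would be kept by a filter that asked for 1 FPKM in both libraries.

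The *GJB6* value was spread over transcripts. NM_001110220 held 70.6% of it in R5020 at 1.23 FPKM, with NM_001110219 at 0.327 and NM_006783 at 0.188, all listed at 0 in EtOH. The only one above 0 in EtOH, NM_001110221, was at 0.0646 and was listed at 0 in R5020. *GJC1*, a connexin best known from heart and vessel, was the main one in both libraries at 3.71 and 5.10 FPKM (change 0.37), and its share of connexin FPKM was 78.4% and 51.3%. *GJB2* and *GJB6* together held 5.07% and 35.9%.

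*GJB2* and *GJB6* lie 29.0 kb apart on chromosome 13 and had no PR binding site within 50 kb. The nearest was 108 kb from *GJB2* and 142 kb from *GJB6*. *GJC1*, which was within 1.5-fold, had 4 sites past its 3' end, all inside introns of *ADAM11*, with a highest score of 139.62 at rank 572 of all sites.

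For the 3 higher members without a site within 50 kb, the 250 bases before the start site are shown, so that the sequence can be read where no PR site was called, from RefSeq on GRCh38.p14. Promoters of 55 of the 86 members were matched. Each of the 3 genes has a single window here, although *GJB6* and *CLDN12* have several deposited transcripts. Which transcript a window belongs to was not determined, so it may not be the start used in these cells. The search covered 300 bases, from 250 before to 50 after the start. Capitals mark AGAACA or its reverse complement TGTTCT, which occurred in *GJB6* with first bases at -186 and -24 from the start. That pattern was in 14.8% of all 35116 RefSeq promoters of this length, the inner letters in 5.37% and the full element in 0.39%, and none of the 3 patterns was in the windows of *GJB2* and *CLDN12*.
GJB2 promoter chr13:20192939-20193188 (minus strand): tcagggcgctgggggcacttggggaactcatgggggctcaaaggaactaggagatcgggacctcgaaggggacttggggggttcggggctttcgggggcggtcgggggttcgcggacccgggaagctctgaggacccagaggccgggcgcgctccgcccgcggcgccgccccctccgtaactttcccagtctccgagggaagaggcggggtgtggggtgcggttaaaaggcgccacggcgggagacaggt
GJB6 promoter chr13:20230979-20231228 (minus strand): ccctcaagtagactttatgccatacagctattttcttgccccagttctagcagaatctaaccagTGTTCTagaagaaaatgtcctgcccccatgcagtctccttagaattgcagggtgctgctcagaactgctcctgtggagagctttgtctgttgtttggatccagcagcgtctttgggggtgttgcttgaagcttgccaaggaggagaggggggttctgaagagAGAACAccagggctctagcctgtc
CLDN12 promoter chr7:90403211-90403460 (plus strand): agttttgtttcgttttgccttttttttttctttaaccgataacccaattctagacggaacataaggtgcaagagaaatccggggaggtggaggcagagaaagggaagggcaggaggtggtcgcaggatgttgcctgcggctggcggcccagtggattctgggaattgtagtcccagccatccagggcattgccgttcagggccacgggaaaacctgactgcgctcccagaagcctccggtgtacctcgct

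The cadherins and their catenins stayed within 1.5-fold. *CDH1*, encoding E-cadherin, the main adhesion molecule of epithelia, was at 102 FPKM in EtOH and 99.2 in R5020 (change -0.04), at ranks 184 and 201 of all gene symbols. *CDH3*, encoding P-cadherin of basal cells, was at 7.92 and 5.98 FPKM (change -0.35), and *CDH24* at 1.89 and 2.33 (change 0.21). The other 20 cadherin genes were below 1 FPKM in both libraries. *CDH10* was the highest of them at 0.896 and 0.403, and *CDH2*, encoding N-cadherin, was at 0.0334 and 0.0215.

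*CTNNA1*, encoding the alpha-catenin that links cadherins to actin, was at 40.7 and 45.0 FPKM (change 0.14). *CTNND1*, encoding the delta-catenin that holds cadherins at the membrane, was at 67.8 and 81.8 FPKM (change 0.27). Only 3 of its 22 transcripts were above 0. NM_001085464 was at 34.7 and 35.5 FPKM and NM_001085467 at 33.0 and 28.9, while NM_001085468 was listed at 0 in EtOH and at 17.3 in R5020. The summed read equivalents of *CTNND1* were 37472 and 43535. *CTNNB1*, encoding beta-catenin, which is not a member of the set, was at 38.5 and 42.8 FPKM. *CDH3* had 1 PR binding site with a score of 111.76, 1273 bases upstream of its deposited extent. That site lay within an intron of *CDH3* in GENCODE, where the start is 6547 bases from the midpoint. *CTNND1* had 3 sites with a highest score of 85.76. *CDH1* and *CTNNA1* had none within 50 kb, the nearest being 94.3 and 178 kb away.

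The desmosomal genes were within 1.5-fold as well. *DSP*, encoding desmoplakin, which ties the plaque to keratin filaments, was at 49.6 and 50.1 FPKM (change 0.01). *JUP*, encoding plakoglobin, which serves both desmosomes and adherens junctions, was at 63.0 and 49.9 FPKM (change -0.33), and both its transcripts were lower in R5020, at 25.6 and 19.3 and at 37.4 and 30.6. The plakophilins, which cluster desmosomal cadherins, were within 1.5-fold, *PKP4* at 17.5 and 16.3 FPKM, *PKP3* at 4.03 and 4.54 and *PKP2* at 3.58 and 3.29. Of the desmosomal cadherins, *DSG2* was at 8.62 and 10.1 FPKM (change 0.21) and *DSC2* at 2.50 and 3.01 (change 0.19), and the other 5 did not exceed 0.156. *JUP* had 9 PR binding sites, 4 of them inside the gene, with a highest score of 96.83, and a change within 1.5-fold. *DSP*, *DSG2* and *DSC2* had none within 50 kb.

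**Figure D4:**
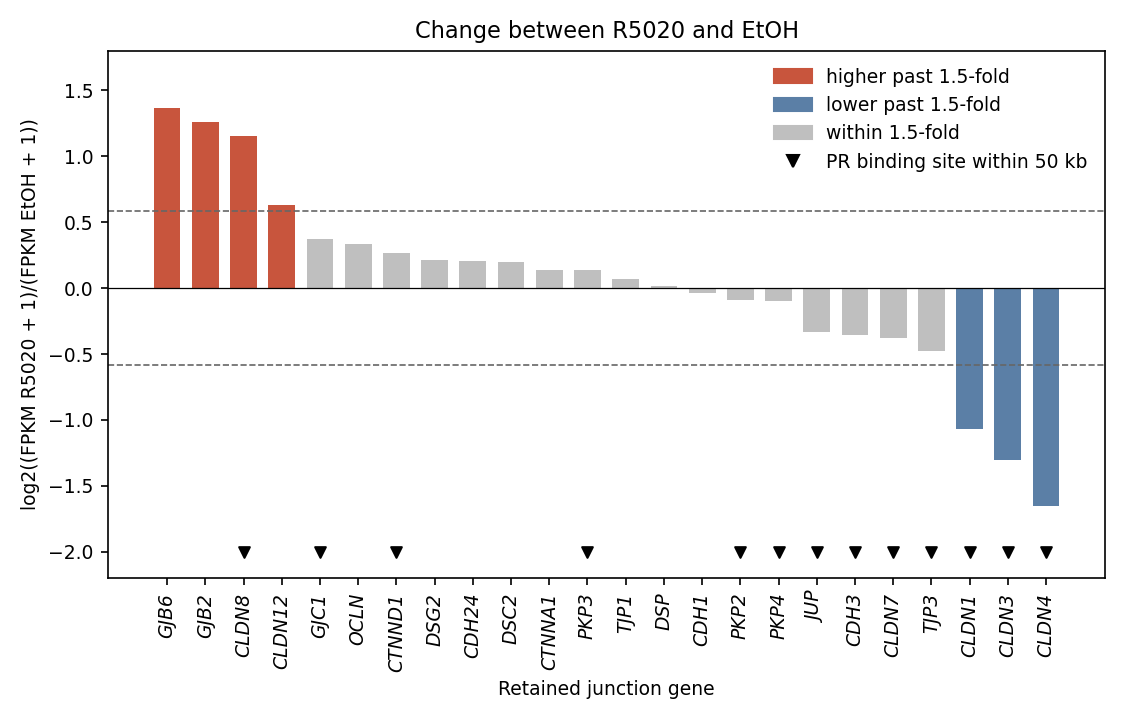
Change of 24 of the 25 retained members on the log2((FPKM + 1)/(FPKM + 1)) scale, R5020 over EtOH, in descending order, with 1 library per condition. Dashed lines mark 1.5-fold, red and blue bars the 4 higher and 3 lower members, and triangles the 13 members with a PR binding site inside or within 50 kb, which stand under called and uncalled members alike.

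Across the retained members, 13 of 25 (52%) had a PR binding site inside or within 50 kb, against 52.7% of all retained genes. How alike these shares were depended on the distance and the score of sites: within 10 kb they were 44% and 33%, and within 100 kb 60% and 64.3%. Among called members 4 of 7 (57.1%) had one, and among uncalled ones 9 of 18 (50%). Over all genes the shares were 61.4% of those called higher, 61.0% of those called lower and 51.5% of those not called. The counts of members are small, and their shares were not tested against those of all genes. All 3 lower members had a site, and 1 of the 4 higher ones. In all, 40 sites lay near retained members, 10 of them inside, with a median score of 70.5, and 27 of the 40 were nearer to the GENCODE start of another gene. The strongest *CLDN4* site is among the 27, since the GENCODE start of *CLDN4* lies farther upstream than the deposited one. The midpoints of 3 sites lay within 1 kb of the start of a retained member (*CLDN3*, *CLDN8* and *PKP4*). Median extent was 32.4 kb for retained members and 27.6 kb for all retained genes.

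Members below 1 FPKM also had PR binding sites. Of these 61 members 20 (32.8%) had a site inside or within 50 kb, against 39.2% of all genes not retained. *CDH4*, a long cadherin gene of 688 kb, had 24 sites, 22 of them inside, at 0.101 and 0.0554 FPKM. *CDH15*, encoding the cadherin of muscle, was listed at 0 in both libraries with 11 sites. The strongest, at 274.17 and rank 145 of all, lay 17179 bases upstream, in a coding exon of *ACSF3*. The 5 sites inside *CDH15* had scores of 53.24 to 69.09. *PKP1*, encoding the plakophilin of stratified epithelia, had 7 sites, and the strongest, at 234.82 and rank 187, lay in an intron 26227 bases from the start. *PKP1* was at 0.0420 FPKM in EtOH and 0.354 in R5020, on 21.5 and 177 read equivalents, both below the level that retains a gene.

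The middle of that *PKP1* site is printed because it is the strongest site inside any member, a choice made after its values were seen. It is on the plus strand of GRCh37, and capitals mark TGTTCT, the reverse complement of the single arm.
PKP1 site chr1:201278657-201278956: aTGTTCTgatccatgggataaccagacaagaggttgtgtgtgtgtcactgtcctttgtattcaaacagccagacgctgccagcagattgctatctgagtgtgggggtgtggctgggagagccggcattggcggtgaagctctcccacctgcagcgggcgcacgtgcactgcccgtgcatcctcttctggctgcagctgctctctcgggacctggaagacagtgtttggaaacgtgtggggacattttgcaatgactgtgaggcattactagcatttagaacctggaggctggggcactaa

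Other genes of the junctions were taken from a list of 61, of which 43 were retained. Of these, 7 were higher and 5 lower, with a median change of -0.10, where 7.65% and 4.1% of all retained genes were. The counts of the single lists rest on few genes, were not tested and are to be read against the same shares. *KRT8* and *KRT18* could not be called because their estimates failed in EtOH. At the tight junction 1 of 17 was higher and 2 were lower. *MARVELD3*, a relative of occludin, was at 11.4 FPKM in EtOH and 22.0 in R5020 (change 0.89). *CGN*, encoding cingulin, which binds the scaffold, was at 12.9 and 7.67 (change -0.68), and *PARD6B*, a polarity protein, at 13.5 and 7.87 (change -0.71).

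At the adherens junction 3 of 12 were higher and 1 was lower. *VCL*, encoding vinculin, which links catenins to actin under load, was at 16.0 and 39.3 FPKM (change 1.24). *MLLT4*, encoding afadin, the actin linker of nectins, was at 5.22 and 10.8 (change 0.93), and *LIMA1*, an actin-bundling protein that binds alpha-catenin, at 17.3 and 31.9 (change 0.84). *PVRL4*, encoding a nectin, was at 17.9 and 9.77 (change -0.81). The cadherins and catenins these proteins attach to were the members within 1.5-fold. Of 4 retained desmosomal partners, *PPL*, encoding periplakin, was higher at 8.65 and 15.6 (change 0.78), and neither of the 2 retained gap junction and pannexin genes passed 1.5-fold.

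Among regulators of epithelial identity 2 of 8 were higher and 2 were lower. *GRHL2*, a grainyhead factor known to act on claudin and *CDH1* genes, was at 14.8 FPKM in EtOH and 72.3 in R5020 (change 2.21), and its relative *GRHL1* was at 6.63 and 14.0 (change 0.97). *GRHL3*, the third grainyhead gene, was at 2.13 and 0.222 (change -1.36), and *OVOL1*, a repressor that holds the epithelial state, at 1.46 and 0.262 (change -0.96). The 3 grainyhead genes thus differed in direction. Neither *GRHL3* nor *OVOL1* would be kept by a filter that asked for 1 FPKM in both libraries. *ESRP1*, an epithelial splicing factor, lay just within the threshold at 26.6 and 17.4 (change -0.58), and past it without a pseudocount (-0.61).

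**Figure D5:**
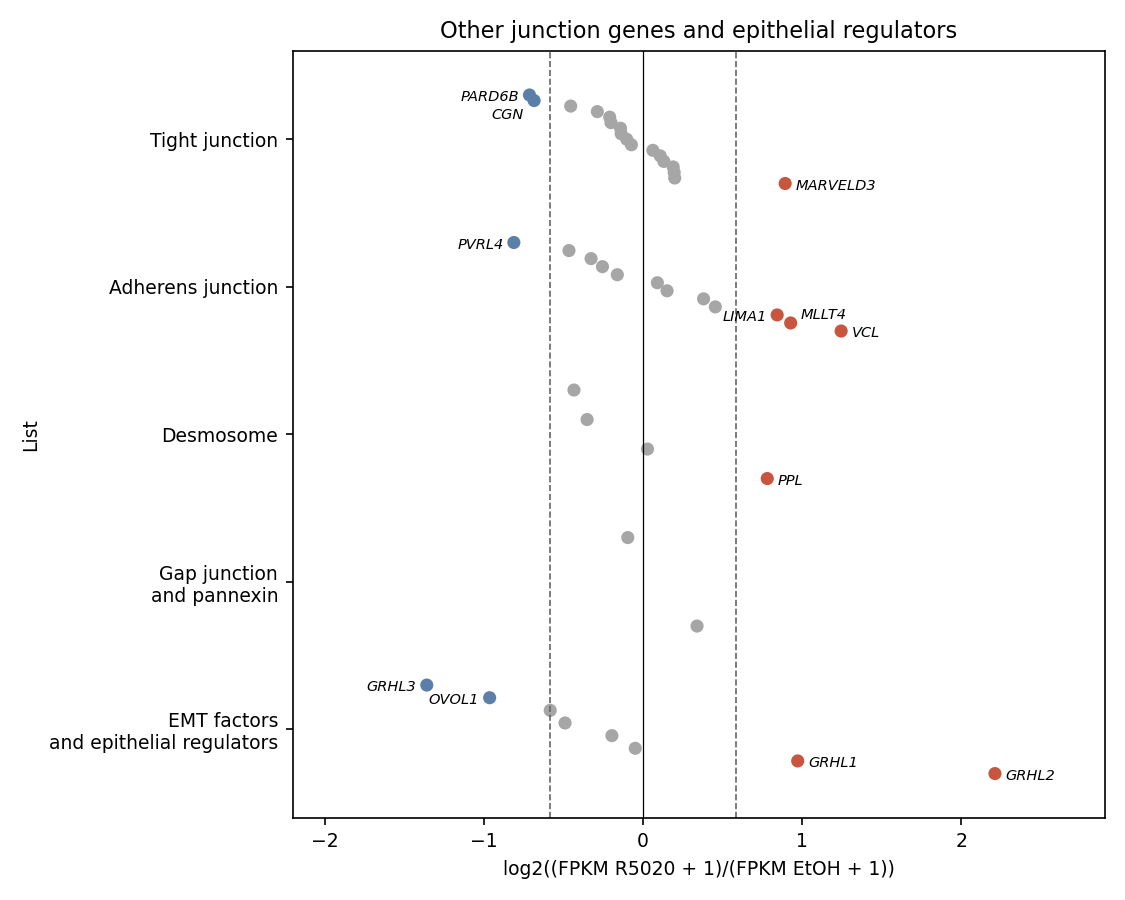
Change of the 43 retained genes of the other junction lists, R5020 over EtOH on the log2((FPKM + 1)/(FPKM + 1)) scale, by list, 1 point per gene with 1 library per condition. Dashed lines mark 1.5-fold and genes past it are named. *GRHL2* at 2.21 lies farthest to the right and *GRHL3* at -1.36 farthest to the left.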

How the data were processed

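RNA was measured in the EtOH and R5020 libraries and PR binding in the ChIP-seq library of T47D cells, 1 library each. Conditions came from the sample labels, and doses and times from the methods of the study. For RNA-seq the authors aligned 50-nt paired reads to hg19 with TopHat, discarded multiply mapped reads and deposited the FPKM of each RefSeq transcript from Cufflinks, with an interval, a status and a coverage. FPKM deposited by the authors holds no counts, so no count test was used. The deposited coverage signal was used only for read equivalents and 1 alternative. For ChIP-seq the authors aligned reads with Bowtie 1.1.2, called sites with MACS against input and deposited a score for each. Depth limits low genes most, and read equivalents stand beside several low members but not beside genes outside the set.

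FPKM was summed over the transcripts of each symbol, a pseudocount of 1 was added, and genes reaching an FPKM of 1 in either library were retained. The 1.5-fold threshold is that of the study, without its p-value. It was applied here after the pseudocount, which the fold changes printed in the study do not carry, so it is stricter for low genes. No test was run. Across all genes, 9 with a failed estimate in either library were left out of the calls. Sites were annotated by midpoint with GENCODE release 44 on GRCh37, where 85 of the 86 members overlapped a gene of the same symbol. All retained members, members past 1.5-fold, low members with a site, called genes of the junction lists and sites near called members could be named, and other names were chosen after their values were seen. Members and lists were chosen with earlier results of these data known. The alternatives were other pseudocounts, filters, thresholds and scalings, the most abundant transcript instead of the sum, and other distances and scores for sites. The change without a pseudocount, its calls and the coverage scaling were added after seeing the data. Values of 1 retained member and the sequences of 2 sites are not reported here. Python 3.11.15, pandas 2.3.3, numpy 2.4.6 and matplotlib 3.10.9 were used.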

Additional observations from a re-analysis of the deposited data

How the results depend on the processing

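No paired analysis was possible because each condition has 1 library, and for the same reason no replicate could be left out. The 4 higher members became 2 (*CLDN8* and *CLDN12*) when FPKM of at least 1 was required in both conditions, and 3 with the highest transcript (without *CLDN12*) or a 2-fold threshold. The 3 lower members were called under all 8 alternatives, and *TJP3* joined them with a pseudocount of 0.1, without a pseudocount and with coverage scaled to library totals. The median change of the retained members was 0.0133 with the filter in both conditions, 0.0563 after rescaling to a median ratio of 0, 0.0159 with the highest transcript and -0.0261 with coverage, where the median of all genes was -0.08. Members with a PR binding site went from 13 to 6 and called members from 4 to 2 when only sites inside the gene counted, from 52.7% to 22.5% over all retained genes. Within 10 kb, 11 members (44%) had a site, against 33% of all retained genes. Within 100 kb the values were 15 (60%) and 64.3%. With sites at or above the median score they were 12 (48%) and 38.7%. These shares were not tested. Of 125 values of single members under the alternatives, 122 had the sign of the main value, and the 3 others were uncalled (*DSC2*, *DSP* and *TJP1*).

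Over all genes, 1089 were higher and 782 lower with a pseudocount of 0.1, 1124 and 840 without one, 662 and 299 with the filter in both conditions, 375 and 139 at 2-fold, and 944 and 1140 with coverage, against 842 and 451. Coverage carried no pseudocount, so its counts are to be set against 1124 and 840. It was scaled to the read equivalents, whose order between the libraries is opposite to that of the read pairs given in the study. The cause of these shifts was not tested. Without a second library per condition, the spread between cultures is unknown and limits every statement.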

Other observations

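Genes beside the called members, chosen after their values were seen, gave the following values. *ABHD11*, which lies 30.1 kb from *CLDN3* and 92.0 kb from *CLDN4* on chromosome 7 and encodes a mitochondrial hydrolase, was at 11.8 FPKM in EtOH and 4.86 in R5020 (change -1.13), the only other gene within 100 kb of either claudin that passed 1.5-fold. *WBSCR27*, the older symbol of *METTL27*, lies 1.91 kb from *CLDN4* and was at 1.11 and 0.832 FPKM (change -0.20). *WBSCR22* was at 27.4 and 25.3 (change -0.11) and *DNAJC30* at 2.60 and 2.41 (change -0.08), so genes in the same stretch did not all move.

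On chromosome 13, *GJA3*, a connexin of the eye lens that lies 26.4 kb from *GJB2*, was at 0.0397 FPKM in EtOH and 0.342 in R5020, on 19.6 and 168 read equivalents. All 3 connexin genes of this cluster thus had more FPKM in R5020, *GJA3* without reaching 1. *GJA1*, the connexin of basal mammary cells, was at 0.0585 and 0.308 FPKM, on 15.9 and 85.9 read equivalents. *SNAI1*, a repressor of *CDH1* that is likewise named after its values were seen, was at 0.0525 and 0.584 FPKM, below the level that retains a gene, while *CDH1* was within 1.5-fold. Other factors of the same list did not share that direction. *TWIST1* was lower in R5020, at 0.460 and 0.0973 FPKM, *SNAI2* was at 0 in both libraries, and *ZEB1* and *ZEB2* did not exceed 0.0132.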
